A study of Mus musculus with 2 samples.

Results

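Amino acid transporters of the solute carrier (SLC) families 1, 3, 6, 7, 36, 38 and 43 were described in mouse embryonic skin cells. The cells are labelled as lymphatic endothelial cells (LECs). The transporters were taken by gene symbol, leaving out the imprinted gene Slc38a4, which gave 63 of the 24319 rows of the expression tables. Of these 63, 60 are transporter genes or transporter subunits and 3 are opposite-strand genes that only share the symbol (Slc7a6os, Slc36a1os and Slc6a19os). RNA sequencing covered 2 libraries labelled as C57BL/6 skin LECs at E15.5 (embryonic day), 1 labelled wild type (the control) and 1 labelled Dot1l knockout. Dot1l encodes the methyltransferase that modifies lysine 79 of histone H3, and the protocol writes the knockout as Dot1lΔEC. The sources used here do not name the Cre driver of that allele. Both libraries used pooled RNA, from 2 to 3 biological replicates, so either genotype is 1 library, no difference below has a replicate check, and none was tested. A growth protocol for cultured dermal LECs also stands in the labels, but the sources used here do not say whether the sequenced cells were cultured.

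Most amino acids cannot cross the plasma membrane unaided, and cells bring them in through carriers with overlapping substrates. Sodium-coupled carriers of the SLC1, SLC6 and SLC38 families load the cell against a gradient, whereas the SLC7 exchangers trade an amino acid inside for another outside and need a heavy chain of the SLC3 family to reach the surface. SLC36 and some SLC38 carriers work at the lysosome, where amino acids are reported to the growth kinase complex mTORC1. Several SLC6 members carry related molecules instead, such as serotonin, taurine and creatine.

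Dot1l was 5.86 FPKM (fragments per kilobase per 1000000 mapped) in the control and 10.4 FPKM in the library labelled knockout. The value covers the whole gene and does not check the deleted part. About 10200000 and 9080000 fragments were estimated for the control and the other library. Markers of many cell types differed between the libraries, given here as library labelled knockout against control. Of all genes kept, 16.78% were higher and 15.49% lower by 2-fold or more. All 20 macrophage markers with a row were 2-fold or more higher there (summed level 93.4 FPKM in control and 5459 FPKM in the other library), with C1qc listed at 0 in control. All 14 mast cell and basophil markers were higher (113 and 13252 FPKM), with Mcpt8 and Fcer1a listed at 0 in control. Of 7 measured neutrophil markers, 5 were kept and 4 of them were higher (6.75 and 319 FPKM), with Csf3r at 0 in control, Camp at 0 in the other library and Elane at 0 in both. Pan-endothelial markers were lower in 13 of 15 (1628 and 387 FPKM), lymphatic markers in 9 of 10 kept (1745 and 797), fibroblast markers in 9 of 10 (4043 and 951) and pericyte and smooth muscle markers in 9 of 9 kept (202 and 30.7). The lymphatic marker within 2-fold was Lyve1, at 526 FPKM in control and 552 FPKM in the other library, where it made up most of the lymphatic sum. Ccl21a, a lymphatic marker that was not kept, is listed at 0 in that library. Other marker lists were mixed. Of markers kept, 5 of 9 were lower for keratinocytes, 1 of 5 for erythroid cells, 4 of 8 for skeletal muscle and 5 of 6 for adipocytes. None of these 4 lists had a higher marker. Of 9 kept for melanocytes and Schwann cells, 1 was higher and 5 were lower. The part of these cells in the values below was not tested, and fewer cells of a type cannot be told apart from less RNA per cell.

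Differences are given as log2(FPKM + 1) in the library labelled knockout minus the same in control, and genes were scored as higher or lower from a difference of 2-fold (1 on that scale). Of the 63 members, 32 reached 1 FPKM in at least 1 library. Among them 12 were higher by 2-fold or more in the library labelled knockout, beside 16.78% of all 13296 genes at that level, and 5 were lower, beside 15.49%. With both libraries scaled to sum to 1000000 the split was 11 and 8, beside 14.3% and 25% of all genes, whose median moved by -0.33. The 12 were Slc3a2, Slc7a5, Slc7a8, Slc7a11, Slc7a4, Slc43a2, Slc38a1, Slc38a6, Slc38a7, Slc36a1, Slc6a9 and Slc6a4, and the 5 were Slc1a3, Slc36a2, Slc38a3, Slc43a1 and Slc43a3. A gene that reaches 1 FPKM in 1 library only is bound to differ to some degree. Of the 4 members that did so only in the library labelled knockout (Slc6a4, Slc7a4, Slc7a8 and Slc7a11) all 4 were counted as higher, and of the 4 that did so only in control (Slc1a2, Slc36a2, Slc38a3 and Slc43a1) 3 were counted as lower. Among the 24 members at 1 FPKM or more in both libraries, 8 were higher and 2 lower, beside 12.13% and 13.35% of the 11112 genes at that level in both. The median difference over the 32 was 0.52, against 0.00 over all genes kept. Scaled to a sum of 1000000 it was 0.18, against -0.33, and with no minimum on the level (50 members above 0) it was 0.08, against -0.01.

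**Figure D1:**
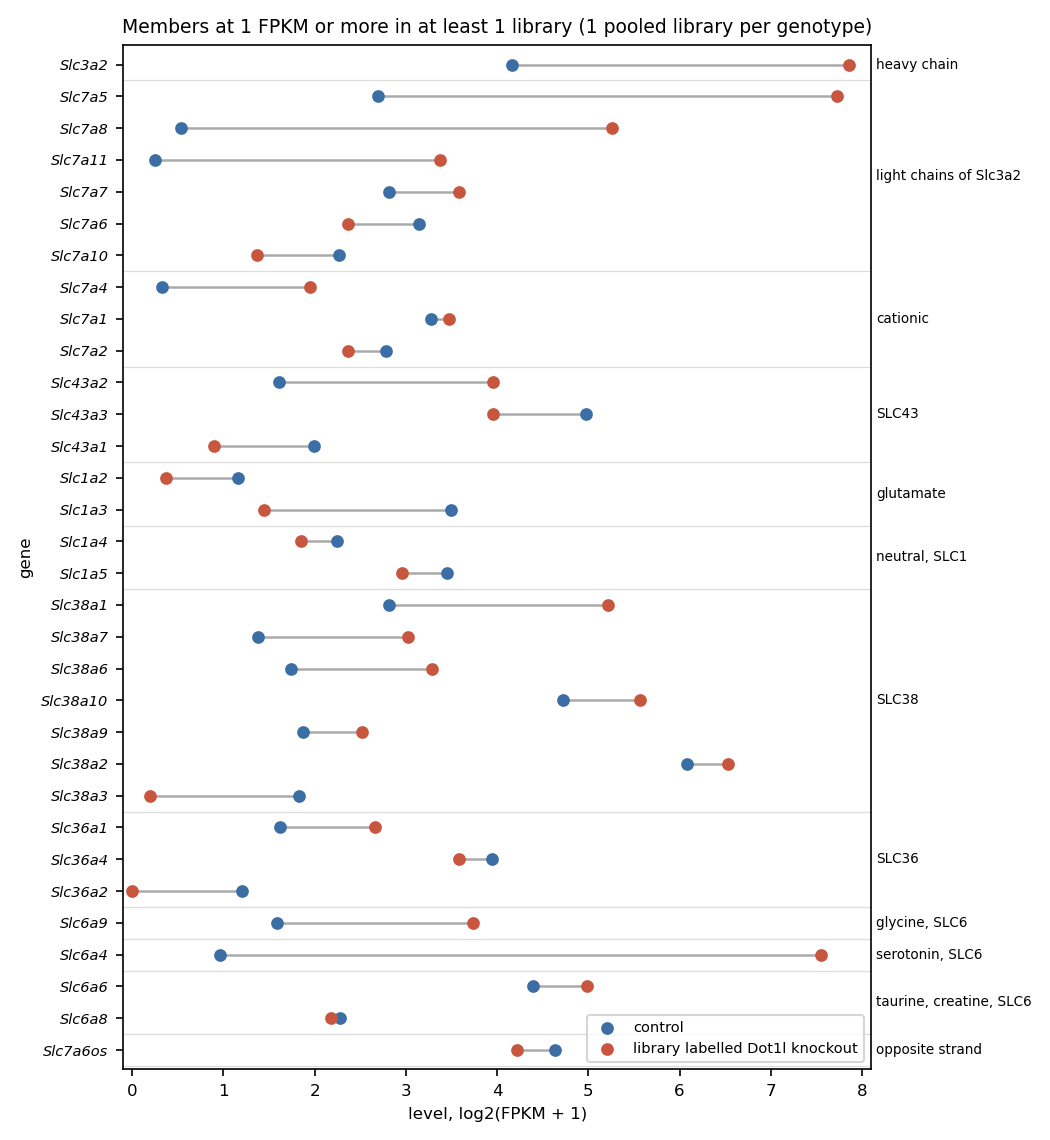
Level of the 32 members that reached 1 FPKM in at least 1 library, on a log2(FPKM + 1) axis, with 1 blue point for the control, 1 red point for the library labelled Dot1l knockout and a line joining them; there is 1 pooled library per genotype and so no error bar. The widest gaps are in Slc6a4 (6.59 on the log2 scale), Slc7a5 (5.03), Slc7a8 (4.72) and Slc3a2 (3.69), while Slc38a2, the most abundant transporter in control, lies within 2-fold.

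The library labelled knockout held more transporter RNA in total, and in another order. The 60 transporter genes summed to 271 FPKM in control and 1009 FPKM in the library labelled knockout, while the sum of all rows was 1.28-fold higher there. In control 7 of the 60 were at 10 FPKM or more, and in the other library 14 were. Slc38a2, which takes up glutamine and other small neutral amino acids, led the control with 66.6 FPKM, 24.5% of the transporter sum. It was followed there by Slc43a3 (30.5 FPKM), Slc38a10 (25.3), Slc6a6 (20) and Slc3a2 (16.9). In the library labelled knockout Slc3a2, Slc7a5 and Slc6a4 led, and these 3 genes together made up 62% of the sum.

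The heavy chain and the light chain that form the main leucine exchanger were both far higher in the library labelled knockout. Slc3a2, the heavy chain (4F2hc, CD98) that carries SLC7 light chains to the membrane, was 16.9 FPKM in control and 230 FPKM in the library labelled knockout. The ratio was 13.6-fold, with a 95% exact (Clopper-Pearson) interval of 12.2 to 15.1 from the estimated fragments, which covers counting error only, as do all intervals here. Slc7a5 (LAT1), which exchanges glutamine for leucine and other large neutral amino acids, was 5.47 FPKM in control and 210 FPKM in the other library, 38.4-fold higher (33.3 to 44.5). It held rank 138 of 13296 genes by log2 difference, and Slc3a2 held rank 320. The other heavy chain, Slc3a1, which serves the cystine carrier of kidney and gut, was 0.184 and 0.358 FPKM, and its partner Slc7a9 was listed at 0 in both libraries.

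The other light chains of Slc3a2 differed from each other in direction. Slc7a8 (LAT2), a neutral amino acid exchanger, was 0.452 FPKM in control and 37.3 FPKM in the library labelled knockout, 82.6-fold higher (52.2 to 136). Slc7a11 (xCT), which imports cystine for glutathione in exchange for glutamate, was 0.191 and 9.40 FPKM, 49.2-fold higher (30.9 to 83.3), and its control value rests on about 18 fragments. Both were below 1 FPKM in control and well above it in the other library. Slc7a7 (y+LAT1), an exporter of cationic amino acids, was 6.04 and 11.0 FPKM, a difference of 0.77 that lay within 2-fold. Slc7a6 (y+LAT2), with the same kind of exchange, was 7.86 and 4.16 FPKM (-0.78), and the small neutral amino acid exchanger Slc7a10 (Asc-1) was 3.83 and 1.59 FPKM (-0.90). Slc7a6 and Slc7a10 were thus the members of this group with lower values in the library labelled knockout, both short of 2-fold on the log2(FPKM + 1) scale. Slc7a6os, on the opposite strand beside Slc7a6, was 23.9 and 17.6 FPKM. The sources used here do not say whether reads were counted by strand, so reads could be shared between the genes.

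The heavy chain and the sum of its light chains were both higher in the library labelled knockout, and the make-up of the light chains differed. Summed over the 6 light chains, the level was 23.8 FPKM in control and 273 FPKM in the library labelled knockout. The ratio of that sum to Slc3a2 was 1.41 in control and 1.19 in the other library. In control Slc7a6 made up 33% of the light chain sum, Slc7a7 25.3%, Slc7a5 22.9% and Slc7a10 16.1%. In the library labelled knockout Slc7a5 made up 76.8% and Slc7a8 13.7%, with Slc7a7 at 4.02%, Slc7a11 at 3.44% and Slc7a6 at 1.52%. No light chain held more than 33% in control, whereas a single one held most of the sum in the other library.

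**Figure D2:**
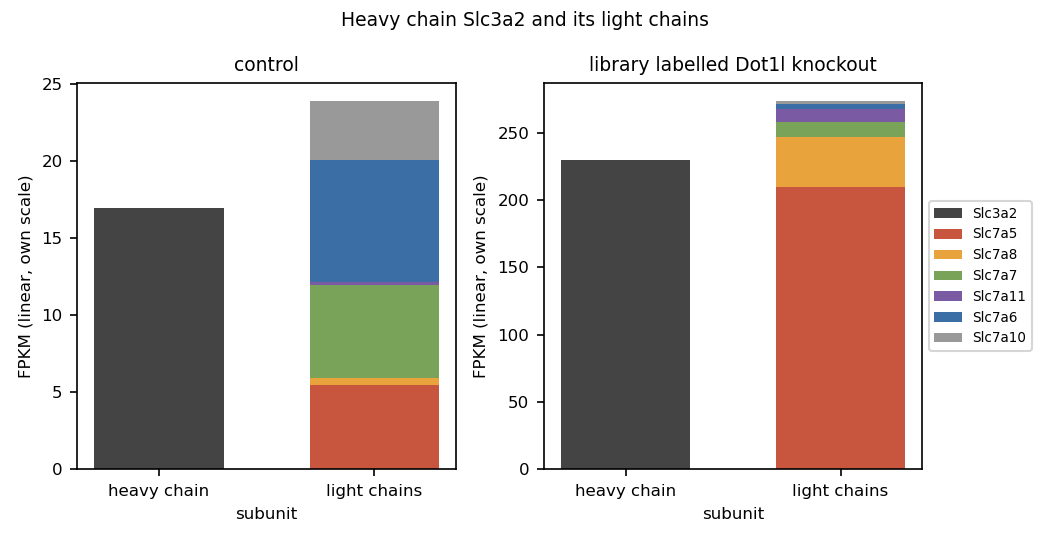
FPKM of the heavy chain Slc3a2 and of its 6 light chains, stacked, in each of the 2 libraries (left, control; right, library labelled Dot1l knockout), on linear axes that start at 0 and differ in scale. The control stack of 23.8 FPKM is mostly shared among 4 of the 6 light chains, and the stack of 273 FPKM in the other library is mostly Slc7a5.

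The upstream sequences of the 3 members with the largest ratios among those that have an entry in the RefSeq promoter table are shown so that the start regions of genes that were higher together can be compared. Capitals mark TGATGNAA (N, any base), the core of the element to which ATF4, the transcription factor of the amino acid response, binds, searched on both strands in the 250 bases before each RefSeq start. They are written 5′ to 3′ on the gene's strand, with positions on GRCm38.p6, the build of the RefSeq table and not the mm9 of the expression files, and bases inside annotated exons are left out. Slc7a11 lies at chr3:50443615-50443863 (minus strand), Slc7a8 at chr14:54781947-54782136 (minus strand) and Slc6a4, the serotonin transporter described below, at chr11:76998347-76998596 (plus strand).
Slc7a11: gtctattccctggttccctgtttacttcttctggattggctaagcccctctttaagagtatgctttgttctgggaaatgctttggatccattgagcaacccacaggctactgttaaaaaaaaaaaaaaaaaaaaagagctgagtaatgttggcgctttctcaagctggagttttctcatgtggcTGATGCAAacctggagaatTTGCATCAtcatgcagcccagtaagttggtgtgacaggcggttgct
Slc7a8: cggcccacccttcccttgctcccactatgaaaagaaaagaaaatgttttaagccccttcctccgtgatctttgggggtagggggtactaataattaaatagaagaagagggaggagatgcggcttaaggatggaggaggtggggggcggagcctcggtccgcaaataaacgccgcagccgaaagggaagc
Slc6a4: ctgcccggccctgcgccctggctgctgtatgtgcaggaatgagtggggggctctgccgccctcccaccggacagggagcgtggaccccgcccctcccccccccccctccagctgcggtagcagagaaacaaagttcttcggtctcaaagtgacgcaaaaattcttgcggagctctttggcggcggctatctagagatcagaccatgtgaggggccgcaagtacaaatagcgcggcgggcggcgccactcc

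The Slc7a11 sequence holds the element 2 times in opposite orientation, at 66 to 59 and at 47 to 40 bases before the start. Of all 32851 windows of the same length in the table, 3.45% hold it at least once and 0.0396% (13 windows) hold it 2 times or more. The Slc7a8 and Slc6a4 windows hold no match. Among the 63 members 45 had an entry, and among the 32 at 1 FPKM or more 22 had one. Of these 22, Slc7a7 was the other member with a match. TGACNNNGC, the core bound by NRF2, the factor of the oxidative stress response, was found in 10.2% of all windows and in 6 of the 31 windows of the 22 genes, at 5 genes (Slc43a1, Slc6a9, Slc7a1, Slc7a6 and Slc38a2). CACGTG, the E-box read by MYC and by the lysosomal factors of the TFEB and MITF family, was found in 6.02% of all windows and in 3 of those 31, at Slc43a1, Slc38a7 and Slc36a1. These motifs overlapped TGATGNAA in no printed window. A match describes the letters and does not show binding.

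Members of the SLC43 family, carriers of large neutral amino acids that need no heavy chain, went in both directions. Of the 3 members 1 was higher and 2 were lower by 2-fold or more, beside 16.78% and 15.49% of all genes. Slc43a2 (LAT4) was 2.06 FPKM in control and 14.5 FPKM in the library labelled knockout, 7.05-fold higher (5.91 to 8.43). Slc43a1 (LAT3) was 2.97 and 0.866 FPKM, 3.43-fold lower (2.07 to 5.92). Slc43a3, known as a carrier of purine bases and grouped here by its symbol, was 30.5 and 14.5 FPKM, 2.10-fold lower (1.84 to 2.39). Its difference of -1.02 lay just past 2-fold, as did the 1.04 of Slc36a1, while Slc7a10 (-0.90) and Slc38a10 (0.85) lay just short of it. Slc43a2 and Slc43a3 were at the same level in the library labelled knockout although Slc43a3 was the more abundant in control.

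Slc6a4, the serotonin transporter, had the largest difference of all members. It was 0.948 FPKM in control and 186 FPKM in the library labelled knockout, 196-fold higher (136 to 305), with a control value of about 26 fragments. Its log2 difference of 6.59 held rank 41 of 13296 genes. Mast cells and platelets are known to take up serotonin through it. In the same library the mast cell proteases Cma1 (46.2 and 5706 FPKM) and Cpa3 (35.8 and 4211 FPKM) were 124-fold and 118-fold higher, and their part in the Slc6a4 value was not tested. The other monoamine carriers, Slc6a2 for noradrenaline and Slc6a3 for dopamine, stayed under 0.3 FPKM in both libraries.

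The remaining SLC6 members that reached 1 FPKM carry glycine, taurine and creatine. Slc6a9 (GLYT1), a glycine transporter, was 2.01 FPKM in control and 12.3 FPKM in the library labelled knockout, 6.14-fold higher (4.78 to 8.06). Slc6a6, which takes up taurine, was 20 and 30.6 FPKM, a difference of 0.59. Slc6a8, which takes up creatine, was 3.86 and 3.53 FPKM (-0.10), a gap inside its counting error (ratio 0.714 to 1.18). Of these 3 carriers Slc6a9 was past 2-fold, and Slc6a6 was the most abundant in both libraries. Below the minimum, Slc6a17 was 0.759 and 0.497 FPKM, about 49 and 28 fragments, and Slc6a14 was 0.596 and 0.368 FPKM, about 21 and 11 fragments.

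The SLC38 family, sodium-coupled carriers of glutamine and small neutral amino acids, differed by member. Of 10 members 7 were kept: 3 were higher by 2-fold or more in the library labelled knockout (16.78% of all genes were), 1 was lower (15.49%) and 3 lay within 2-fold. Slc38a1 (SNAT1), a glutamine importer, was 6.05 FPKM in control and 36.2 FPKM in the other library, 5.98-fold higher (5.39 to 6.64). Slc38a7, a glutamine and asparagine carrier of lysosomes, was 1.60 and 7.15 FPKM (4.48-fold), and Slc38a6 was 2.34 and 8.76 FPKM (3.74-fold). Slc38a2 (SNAT2), which cells induce when amino acids are short, was 66.6 and 91.7 FPKM, 1.38-fold higher. The abundant Slc38a10 was 25.3 and 46.3 FPKM, and Slc38a9, the lysosomal arginine sensor of mTORC1, was 2.66 and 4.72 FPKM (0.64). The single lower member was Slc38a3 (SNAT3), a glutamine carrier of liver, kidney and astrocytes, with 2.55 and 0.144 FPKM. That is 17.7-fold lower with a wide interval (6.21 to 94.5), since the second value rests on about 3 fragments. Slc38a5, Slc38a8 and Slc38a11 stayed under 0.2 FPKM in both libraries.

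Most SLC36 carriers move protons with glycine, alanine or proline. Slc36a1 (PAT1), found on lysosomes, was 2.08 FPKM in control and 5.34 FPKM in the library labelled knockout, 2.56-fold higher (2.04 to 3.22). Slc36a4 was 14.4 and 11.0 FPKM (-0.36). Slc36a2 was 1.30 FPKM in control, about 32 fragments, and the library labelled knockout lists it at 0, so no ratio is given. Slc36a3 was listed at 0 in both. Of the 3 members kept 1 was higher, 1 lower and 1 within 2-fold, beside 16.78% higher and 15.49% lower of all genes. Neither call held under every other pseudocount and scaling described below (0.55 to 1.32 for Slc36a1, -3.81 to -0.33 for Slc36a2).

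Each of the 4 SLC1 members kept was below its control value in the library labelled knockout, 1 of them by 2-fold or more. Of all genes kept, 15.49% were lower by that much. Slc1a3 (GLAST), a glutamate transporter of glia and other cells, was 10.3 FPKM in control and 1.73 FPKM in the other library, 5.97-fold lower (4.62 to 7.93). Slc1a2 (GLT-1), the other main glutamate carrier of brain, was 1.23 and 0.292 FPKM. Its ratio was 4.23-fold lower, but on the log2(FPKM + 1) scale the difference was -0.79. The neutral amino acid exchangers Slc1a5 (ASCT2), which brings in glutamine, and Slc1a4 (ASCT1) were 9.97 and 6.74 FPKM (-0.50) and 3.75 and 2.61 FPKM (-0.39). Slc1a5 thus differed in direction from Slc3a2 and Slc7a5, with which it is often paired in accounts of leucine uptake. Slc1a1 was 0.494 and 0.0616 FPKM, under the minimum in both libraries.

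Slc7a1 and Slc7a2, carriers of arginine and lysine, lay within 2-fold. Slc7a1 (CAT1), the widespread cationic amino acid carrier, was 8.68 FPKM in control and 10.1 FPKM in the library labelled knockout, a difference of 0.19 that became -0.13 when both libraries were scaled to sum to 1000000. Slc7a2 (CAT2), which macrophages use for arginine uptake, was 5.90 and 4.14 FPKM (-0.42). Slc7a4, a relative whose substrate is not established, was 0.255 and 2.85 FPKM, 11.2-fold higher (5.33 to 24), from about 9 fragments in control. Slc7a3 was 0.140 and 0.104 FPKM and Slc7a14 was 0.0666 FPKM in control and listed at 0 in the other library.

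Of the 31 members below 1 FPKM in both libraries, 13 were listed at 0 in both and 18 were above 0, the highest at 0.826 FPKM (Slc6a13 in the library labelled knockout). The 13 included Slc36a1os, Slc6a19os, the glycine transporter Slc6a5, the proline transporter Slc6a7 and the epithelial neutral amino acid transporters Slc6a18 and Slc6a19. A value listed at 0 can be a failed estimate. For a 2 kb transcript, 1 FPKM corresponds to at most about 20.5 fragments in control and 18.2 in the other library. These figures use the estimated depth and the full transcript length. Low levels of these genes were thus not resolved.

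Other solute carriers, among them Slc38a4, were compared as a background. Of 300 other genes with an SLC symbol, 173 were kept, of which 26% were higher and 11.6% lower by 2-fold or more, and the median was 0.45, beside 16.78%, 15.49% and 0.00 over all genes. With both libraries scaled to sum to 1000000, 37 of the 173 were higher and 29 lower, and the median was 0.19. Under that scaling 14.3% of all genes were higher and 25% lower, with a median of -0.33. As deposited, for the members kept these values were 37.5%, 15.6% and 0.52, and the difference between the lists was not tested. A list of 21 carriers of amino acids or peptides outside the member families, most of them in mitochondria or lysosomes, was also compared. Those with an SLC symbol are also among the 300. Of the 21, 14 were kept, 5 were higher (35.7%, beside 16.78% of all genes) and none lower (beside 15.49%), with a median of 0.83. Slc16a10 (TAT1), which lets aromatic amino acids out of the cell, was 1.73 and 10.2 FPKM, 5.88-fold higher. Slc15a4, a histidine and peptide carrier of lysosomes, was 4.2 and 10.1 FPKM, while the cystine exporter of lysosomes, Ctns, was 6.15 and 11.5 FPKM and lay within 2-fold.

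Genes that act with amino acid supply did not move as a block. Of 19 ATF4 and amino acid response genes, 7 were higher by 2-fold or more, 2 were lower and 10 lay within 2-fold. These are 36.8% higher and 10.5% lower, beside 16.78% and 15.49% of all genes. The median was 0.77, against 0.00 over all genes, or 0.43, against -0.33, with both libraries scaled to sum to 1000000. Atf3 was 36.5 and 265 FPKM, and Ddit3, the stress factor CHOP, was 16.1 and 61.6 FPKM. Of 17 amino acid synthesis enzymes kept, 15 lay within 2-fold (median 0.05), as did 9005 of all 13296 genes kept. None was lower (beside 15.49% of all genes) and 2 were higher (11.8%, beside 16.78%). The 2 higher were Glul, glutamine synthetase, at 37.9 and 145 FPKM, and Got1, an aspartate aminotransferase, at 10 and 21.7 FPKM. The serine synthesis enzyme Psat1, an ATF4 target, was 27.1 and 38 FPKM. As deposited, all 20 cytosolic aminoacyl-tRNA synthetases, which load amino acids onto tRNA, lay within 2-fold (median 0.12, from -0.91 for Gars to 0.77 for Vars). Thus 0% of them were higher or lower, beside 16.78% and 15.49% of all genes. With both libraries scaled to sum to 1000000 the medians of the synthesis enzymes and the synthetases were -0.28 and -0.22, so the sign of both flipped. Under that scaling Gars was lower at -1.26 and Got1 was no longer past 2-fold, and Gars was also lower at -1.07 with small RNAs left out of the sum and at -1.03 with the upper quartiles made equal. These lists share no gene with the members.

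Genes of glutathione, which needs the cystine brought in by Slc7a11, and of the NRF2 response were higher in 9 of 17 kept and lower in none as deposited (median 1.03). With both libraries scaled to sum to 1000000, 7 were higher and 1, Nqo1, was lower (-1.12), with a median of 0.68. Of all genes, 16.78% were higher and 15.49% lower as deposited. Under that scaling 14.3% of them were higher and 25% lower, with a median of -0.33. Gclm and Gclc, the subunits of the enzyme that joins glutamate to cysteine, were 6.16 and 39.2 FPKM and 9.14 and 31.6 FPKM. Hmox1, which degrades haem, was 13.2 and 886 FPKM, and Srxn1, sulfiredoxin, was 5.25 and 54.2 FPKM. In the list of mTORC1 amino acid sensing genes 7 of 31 were higher (22.6%), 2 lower (6.45%) and 22 within 2-fold (median 0.46). After that scaling 6 were higher and 3 lower (median 0.19), beside the same shares of all genes as above. Fnip1 and Flcn, partners in a complex that acts on the Rag GTPases, were 14.0 and 82.7 FPKM and 4.40 and 21.3 FPKM, and Rragc, a Rag GTPase, was 22 and 74.5 FPKM. Tfeb, the lysosomal transcription factor, was 12.4 and 3.48 FPKM. Of 17 kept genes that use arginine, glutamine, tryptophan, branched-chain or other amino acids, 7 were higher (41.2%) and 3 lower (17.6%). All genes had 16.78% and 15.49%, and the median of the 17 was 0.20, or -0.15 after that scaling. Hdc, which makes histamine in mast cells, was 7.74 and 1818 FPKM, Arg1, the arginase of some macrophages, was 0.612 and 12.8 FPKM, and Bckdhb, a subunit of branched-chain breakdown, was 28.8 and 7.42 FPKM. Hdc is also one of the mast cell markers above.

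**Figure D3:**
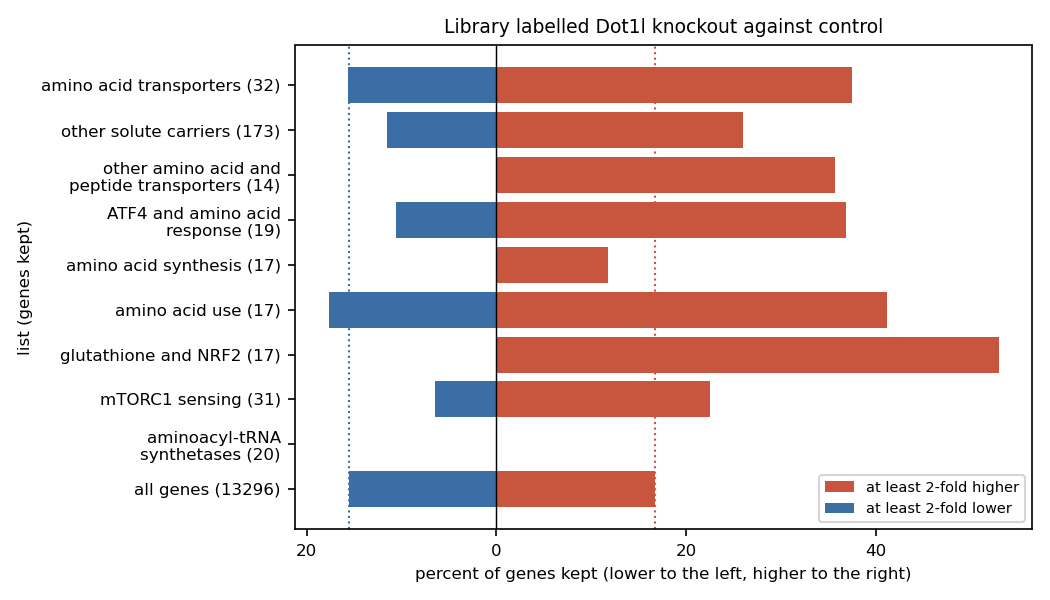
Percent of the genes kept in each list (number kept in parentheses) that were higher (red, to the right) or lower (blue, to the left) by 2-fold or more in the library labelled Dot1l knockout, with dotted lines at the shares of all 13296 genes kept (16.78% and 15.49%). Amino acid transporters reach 37.5% and 15.6%, glutathione and NRF2 genes 52.9% and 0%, and the aminoacyl-tRNA synthetases have no gene in either direction with the values as deposited, though Gars is lower under 3 of 4 scalings.

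The size of the differences was also taken under 2 other pseudocounts and 4 scalings between the libraries. The direction of the 17 members past 2-fold could not change under these. A pseudocount cannot change a sign, and the largest scaling between the libraries was 1.28-fold. The difference stayed past 2-fold under all 6 for 8 of the 12 higher members (Slc6a4, Slc7a5, Slc7a8, Slc3a2, Slc7a11, Slc38a1, Slc43a2 and Slc6a9) and for 1 of the 5 lower ones (Slc1a3). For Slc7a5 it ranged from 4.36 to 5.24 and for Slc3a2 from 3.38 to 3.75. It spread further for genes of low control level, from 1.47 to 5.03 for Slc7a11 and from 2.96 to 6.08 for Slc7a8. Slc36a2 and Slc38a3, which are low in the library labelled knockout, ranged from -3.81 to -0.33 and from -3.44 to -0.55. Among the 15 members within 2-fold only Slc7a1 changed sign. Slc1a2, Slc7a10 and Slc7a6 passed 2-fold in the lower direction under some of the 6, reaching -1.77, -1.35 and -1.17.

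**Figure D4:**
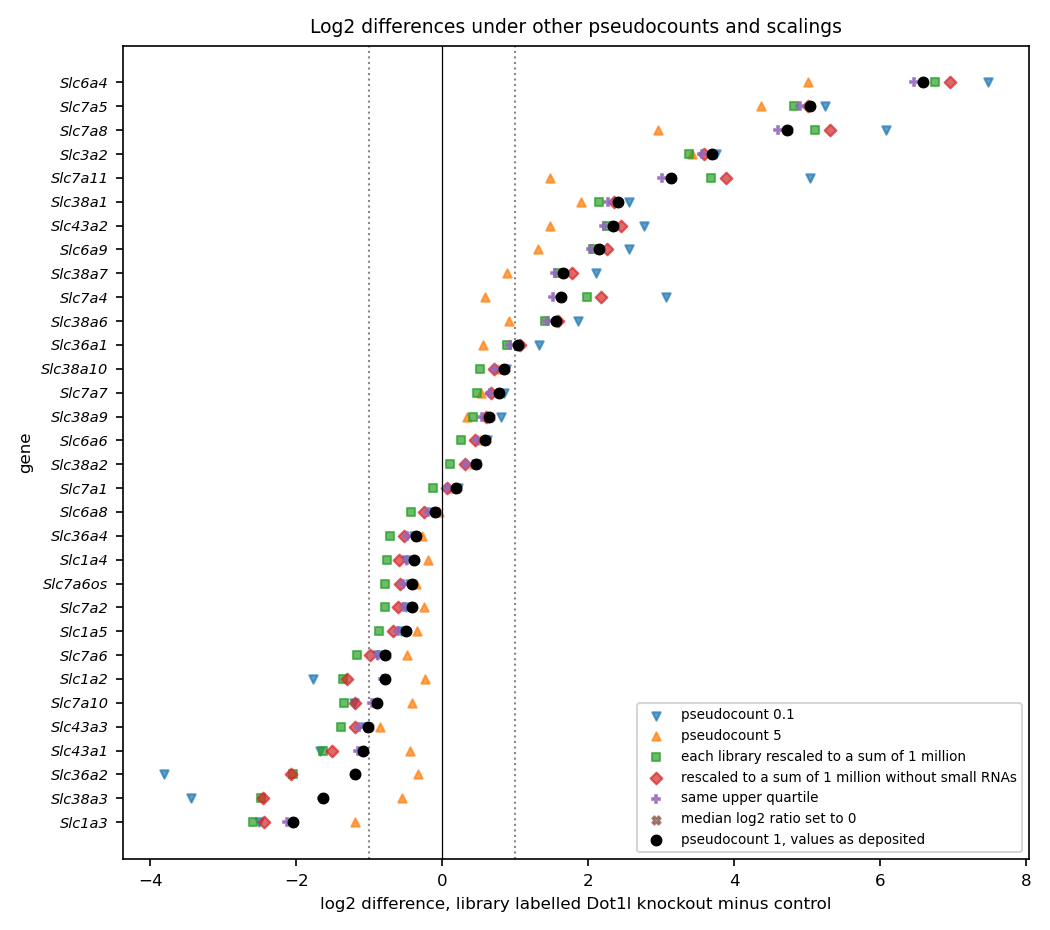
Log2 difference (library labelled Dot1l knockout minus control) of the 32 members kept, as black circles for values as deposited with a pseudocount of 1 and as coloured marks for 2 other pseudocounts and 4 scalings; dotted lines mark 2-fold in each direction. Slc6a4, Slc7a5 and Slc7a8 lie far to the right under every setting, and Slc38a3 and Slc36a2 spread widely on the left.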

How the data were processed

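RNA from cells labelled as skin LECs was sequenced as 2 libraries. Each was from RNA with an integrity number above 7.0 pooled from 2 to 3 biological replicates and prepared with the ScriptSeq v2 kit, per the labels' protocols. The authors deposited 1 value per gene symbol, taken as FPKM from the tools in the submitters' processing notes (STAR 2.5.2b, Cufflinks 2.2.1, Cuffnorm and R 3.3.2, with build mm9) and from the decimal values. The sources used here do not give the role of each tool, the annotation or any scaling between libraries.

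The deposited FPKM were compared with Python 3.11.15 and pandas 2.3.3. Differences are log2(FPKM + 1), which understates low genes; genes at 1 FPKM or more in at least 1 library were kept and 2-fold was the threshold. Folds of single genes are ratios of FPKM. With 1 library per genotype no test was run. Depth was estimated from whole-fragment steps in single-transcript genes of at least 2500 nt, assuming 200 nt fragments: 80.2% of 131 control values and 74.1% of 147 others of up to 5 fragments lay within 0.1 of a whole number, if no further scaling was applied. Fragments per gene use the full median length of its RefSeq-linked GENCODE transcripts, whereas the depth estimate took the fragment length off. Fragment counts are thus somewhat too high, most so for short transcripts, and the intervals somewhat too narrow. Intervals (95%, Clopper-Pearson) cover counting error only. The scripts were tested on simulated data.

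Members with at least 10 FPKM in either library or past 2-fold are named with both values, as are other members where a group is described. Of a related list at most 6 genes are named, with the largest differences and 10 FPKM or more in either library, and of a marker list the highest. Members, lists and roles were chosen with earlier results of these data known. Alternatives were other pseudocounts, scalings, minimums and thresholds, and, chosen after seeing the data, leaving out the opposite-strand genes.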

Additional observations from a re-analysis of the deposited data

How the results depend on the processing

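No paired analysis was possible because there is a single library of either genotype. For the same reason no library could be dropped. The 12 higher members ranged from 8 (pseudocount 5) to 16 (threshold of 1.5-fold), where 9.95% and 26.1% of all genes were higher. The 5 lower members became 7 and 1 with pseudocounts of 0.1 and 5, beside 20.1% and 6.93% of all genes. After rescaling to 1000000 with and without small RNAs they became 8 and 7, beside 25% and 21.1%. A minimum of 5 FPKM left 2 lower, beside 15%, while 1.5-fold gave 8, beside 25.9%, and 3-fold gave 2, beside 6.81%. The median of 0.52 over all 32 members kept became 0.54 and 0.39 with pseudocounts of 0.1 and 5, 0.18 and 0.38 after rescaling to 1000000 with and without small RNAs, 0.40 at the same upper quartile, 0.53 with the median ratio set to 0, 0.08 with no minimum (50 members), 0.85 with a minimum of 5 FPKM (23 members) and 0.59 without the opposite-strand genes. Rescaling to 1000000 moved the median of all genes to -0.33, or -0.14 without small RNAs. The difference of Dot1l was 0.50 with a pseudocount of 5 and 0.44 after rescaling, against 0.73. The 8 members below 1 FPKM in 1 library (Slc6a4, Slc7a4, Slc7a8, Slc7a11, Slc1a2, Slc36a2, Slc38a3 and Slc43a1) rest on few fragments there.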

Other observations

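Genes that make, store and break down serotonin, the substrate of Slc6a4, were looked up after that value was seen. Tph1, the enzyme that commits tryptophan to serotonin outside the brain, was 0.0475 FPKM in control, about 1 fragment, and 32.5 FPKM in the library labelled knockout (ratio 104 to 23116 by counting error). Ddc, the second enzyme of the path, was 0.442 and 31.3 FPKM, 70.7-fold higher. Slc18a2, which loads serotonin and histamine into vesicles, was 0.241 and 67.3 FPKM, 280-fold higher. Maob, a monoamine oxidase, was 3.02 and 128 FPKM, 42.6-fold higher, whereas Maoa, the other oxidase, was 16.8 and 10.5 FPKM. All 14 mast cell and basophil markers were higher in the same library. Slc38a4, the imprinted family member left out of the list, was 30.8 FPKM in control and 9.27 FPKM in the library labelled knockout, 3.32-fold lower.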
